A study of Vitis vinifera with 219 samples.

Results

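Pinot noir berries were set against Cabernet Sauvignon berries at matched sugar content late in ripening. Every library carries a sugar content of its own in the labels, and the comparison took all libraries labelled 20 to 23 g/100 ml inclusive, whatever their day or season. These were 33 libraries, with 186 others in the series, and comprised 11 of Pinot noir and 22 of Cabernet Sauvignon. Transcript levels were measured by RNA-seq in pericarp (skin and flesh, seeds removed during grinding) of Vitis vinifera over 3 seasons. The deposited unit is RPKM, in which read numbers are divided by gene length and library size.

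Pinot noir was clone FPS 23 on the rootstock Freedom, planted in 2001, and Cabernet Sauvignon was clone FPS 8 on 5C, planted in 1997. Both stood near Modesto, and no vine of either cultivar had its clusters thinned. A sample pooled 60 berries of 6 clusters from a block of 8 Pinot noir or 6 Cabernet Sauvignon vines. Each cultivar is 1 clone on 1 rootstock, so effects of the cultivar, its rootstock, the age of its vines and its rows cannot be told apart. By season, Pinot noir had 2, 5 and 4 libraries in 2012, 2013 and 2014, and Cabernet Sauvignon had 8, 5 and 9. The Pinot noir libraries came from 7 samplings and the Cabernet Sauvignon libraries from 13.

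Sugar content in the compared libraries ran from 20.93 to 22.91 g/100 ml in Pinot noir (median 22.43) and from 20.12 to 22.94 g/100 ml in Cabernet Sauvignon (median 21.58). Just outside the window, the nearest Pinot noir libraries had 19.93 and 23.19 g/100 ml and the nearest Cabernet Sauvignon libraries 19.94 and 23.3 g/100 ml. Labelled days after veraison, when berries begin to soften and colour, ran from 28 to 49 in Pinot noir and from 29 to 80 in Cabernet Sauvignon. Matching on sugar therefore set Pinot noir beside Cabernet Sauvignon berries that had in part hung on the vine for longer.

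Ripe red berries make several families of phenolic compounds from phenylalanine. Phenylalanine ammonia-lyase opens the pathway. Chalcone synthase then leads into flavonoids, which include the red anthocyanins, the flavonols and the tannins, while stilbene synthase uses the same substrates for stilbenes such as resveratrol, which serve in defence. Hexose transporters and SWEET exporters move sugars in the berry, and NAC factors are transcription factors, some of them named in work on ripening.

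The 33 libraries separated by cultivar along the first principal component (45.8% of the variance). Of 17 genes that marked Pinot noir in the libraries of 10 to 13 g/100 ml, 15 to 17 were present in each Pinot noir library and 0 to 1 in each Cabernet Sauvignon library, so the compared libraries carried the markers of their labelled cultivar. In the whole series 4 libraries went against that label, and they lie outside this sugar window. A set of 13 genes, at 5 RPKM or more in every library of 2012, was below 1 RPKM in every library of 2014. They were present in 7 Pinot noir and 11 Cabernet Sauvignon libraries, and absent in 4 Pinot noir libraries, all of 2014, and 11 Cabernet Sauvignon libraries, 9 of 2014 and 2 of 2013. The labels name no cause for this division, and in Pinot noir it cannot be told apart from season. A Pinot noir library of 2012 (day 32, replicate 1) lay apart from the others and had the highest RPKM sum, 1192349, against sums of 864961 to 1069836 in Cabernet Sauvignon. Markers of coloured ripe berry were present throughout, with GST4 at 519 RPKM or more in Pinot noir and at 406 RPKM or more in Cabernet Sauvignon. The 4 markers of tannin-making tissue such as young skin or seed differed in level. LAR1 stayed at or under 0.498 RPKM in Pinot noir and 0.276 RPKM in Cabernet Sauvignon, and MYBPAR at or under 0.0641 RPKM in Pinot noir and 0.288 RPKM in Cabernet Sauvignon. LAR2 ran from 0.992 to 3.24 RPKM in Pinot noir and from 0.750 to 5.34 RPKM in Cabernet Sauvignon, whereas ANR was higher in Pinot noir without overlap, at 2.45 to 3.67 RPKM against 0.187 to 1.39 RPKM in Cabernet Sauvignon.

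At equal sugar, Pinot noir berries had much higher transcript levels of stilbene synthases, phenylalanine ammonia-lyases, the hexose transporters HT1, HT2 and HT5, and a thaumatin-like protein. Cabernet Sauvignon had higher levels of an anthocyanin acyltransferase, of NAC11, of SWEET10 and of several flavonoid hydroxylases. A gene counted as changed when limma, with season as a covariate, gave a Benjamini-Hochberg adjusted p under 0.05 over all genes tested and a difference of at least 1 in log2(RPKM + 1). Of 18141 genes tested, 1971 changed (10.9%), 1117 higher in Pinot noir (6.16%) and 854 lower (4.71%). The filter on low values was 1 RPKM or more in at least 3 libraries. It was passed in both cultivars by 16030 genes, of which 753 were higher and 608 lower. Pinot noir alone carried 879 genes past it and Cabernet Sauvignon alone 1334, and for these the filter bears on the direction. The 2 cultivars' libraries did not overlap at all in 1058 higher (5.83%) and 1192 lower genes (6.57%). Of the changed genes, 1954 had the same sign in all 3 seasons. The median difference over all genes was -0.13, and -0.02 with TMM scale factors. The p-values measure the spread between libraries, some of which come from the same vine blocks.

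**Figure D1:**
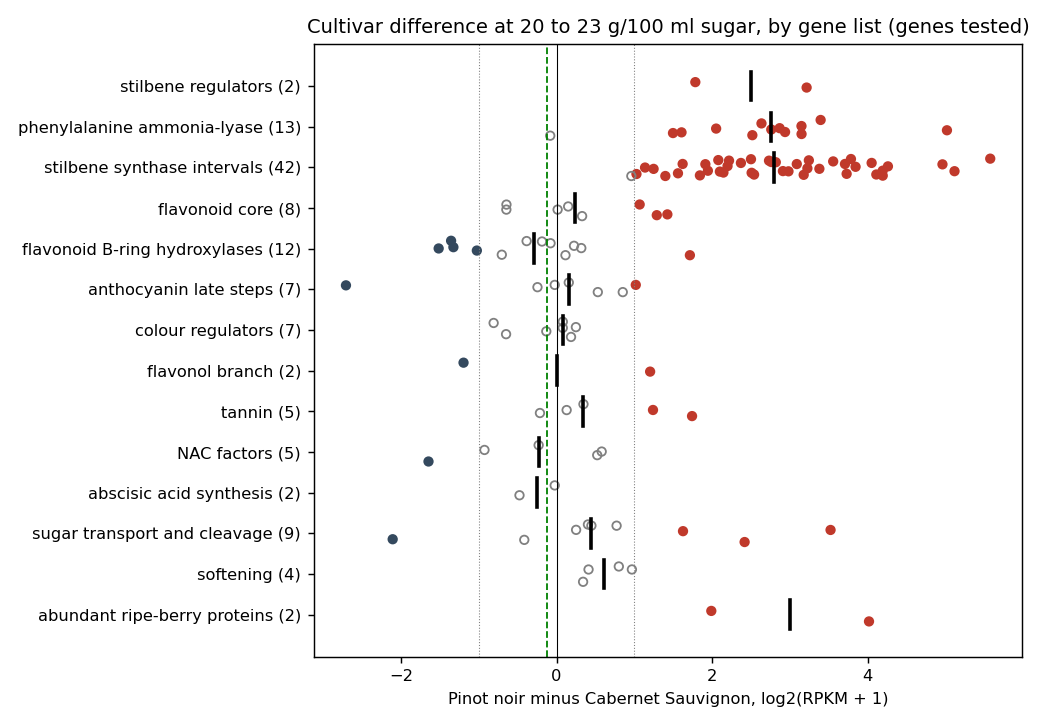
Difference between cultivars (Pinot noir minus Cabernet Sauvignon, log2(RPKM + 1)) for each tested gene of 14 lists, with the number tested in brackets. Filled points changed (red higher in Pinot noir, dark blue lower), open points did not pass, black bars are list medians and the dashed line is the median of all genes, -0.13; the stilbene synthase and phenylalanine ammonia-lyase lists lie almost wholly to the right.

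The regulators of stilbene synthesis were higher in Pinot noir. MYB14 (VIT_07s0005g03340), an activator of stilbene synthase genes, ran from 4.79 to 26.2 RPKM in Pinot noir (median 16.8), against 0.163 to 1.47 RPKM in Cabernet Sauvignon (median 0.788). The lowest Pinot noir library stood above the highest Cabernet Sauvignon library, and the log2 difference was 3.21 (SE 0.15, limma adjusted p = 2.09e-18). MYB15 (VIT_05s0049g01020), a related activator, ran from 86.3 to 138 RPKM in Pinot noir (median 107), against 17.2 to 49.8 RPKM in Cabernet Sauvignon (median 27.5), with a difference of 1.78 (SE 0.13). Its groups did not overlap either. The remaining member, MYB13, reached at most 1.18 RPKM in Pinot noir and 0.0951 RPKM in Cabernet Sauvignon and was below the filter on low values.

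Of 13 phenylalanine ammonia-lyase genes, all tested, 12 were higher in Pinot noir, 0 lower, and 1 did not pass, with a median difference of 2.76. VIT_08s0040g01710 ran from 42.5 to 111 RPKM in Pinot noir (median 83.4), against 0.397 to 3.99 RPKM in Cabernet Sauvignon (median 1.27). No library of one cultivar came near the other, and the difference was 5.02 (SE 0.17, limma adjusted p = 9.95e-23). In the tandem group on chromosome 16, VIT_16s0039g01320 ran from 1.83 to 57.1 RPKM in Pinot noir (median 18.6), against 0 to 1.32 RPKM in Cabernet Sauvignon (median 0.369; difference 3.39, SE 0.27). VIT_16s0039g01100 averaged 26.2 ± 13.9 RPKM in Pinot noir (SD, n = 11) and 1.65 ± 1.68 RPKM in Cabernet Sauvignon (SD, n = 22; difference 3.15, SE 0.21). Here the groups overlapped, with a Pinot noir library as low as 4.29 RPKM and a Cabernet Sauvignon library at 7.24 RPKM. The abundant VIT_13s0019g04460, named after its value was seen, was also higher, at 38.7 to 115 RPKM in Pinot noir against 12.2 to 44.5 RPKM in Cabernet Sauvignon (difference 1.50, SE 0.15). The gene that did not pass, VIT_06s0004g02620, averaged 13.7 RPKM in Pinot noir and 13.3 RPKM in Cabernet Sauvignon. Of the 13 genes, 9 passed the filter on low values through Pinot noir libraries alone, so they could only differ upward. Of the 4 that passed in both cultivars, 3 were higher, where 4.7% of all genes that passed in both were higher.

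The stilbene synthase clusters were taken as every gene ID of an interval on chromosome 16 and another on chromosome 10, 49 IDs in all. Of these, 42 were tested, 41 were higher in Pinot noir, 0 lower, and the groups did not overlap in 27. Among all genes tested, 5.83% were higher in Pinot noir without overlap. Summed over the 49 IDs, Pinot noir libraries had 107 to 1446 RPKM (median 691), against 4.76 to 38.5 RPKM in Cabernet Sauvignon (median 13.9), so the lowest Pinot noir library exceeded every Cabernet Sauvignon library. As with phenylalanine ammonia-lyase, the filter bears on the counts of higher genes and of genes without overlap, since 31 of the 42 passed it through Pinot noir alone. The 11 that passed it in both cultivars were all higher, where 4.7% of all genes that passed in both were higher. Of the 7 IDs not tested, 4 were listed at 0 in every compared library.

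Within the clusters, VIT_16s0100g01100 differed most. It ran from 21.3 to 126 RPKM in Pinot noir (median 82.7), against 0.0291 to 2.39 RPKM in Cabernet Sauvignon (median 0.301), a difference of 5.57 (SE 0.19, limma adjusted p = 4.65e-22). VIT_16s0100g01200 ran from 6.88 to 159 RPKM in Pinot noir (median 73.1), against 0.0878 to 2.02 RPKM in Cabernet Sauvignon (median 0.343; difference 5.11, SE 0.23). VIT_16s0100g00750 averaged 45.1 ± 20.5 RPKM in Pinot noir (SD, n = 11) and 0.336 ± 0.270 RPKM in Cabernet Sauvignon (SD, n = 22; difference 4.96, SE 0.17). None of these 3 genes had overlapping groups, and the spread within Pinot noir was wide. The 1 tested gene that did not pass, VIT_16s0100g01040, averaged 1.18 RPKM in Pinot noir and 0.0849 RPKM in Cabernet Sauvignon, and its difference of 0.96 fell short of the size threshold. Both families hold near-identical copies, and how the authors' counting split reads among them was not given in the sources used here. Levels of a single copy are uncertain for that reason, and whether the sums are firmer was not tested.

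**Figure D2:**
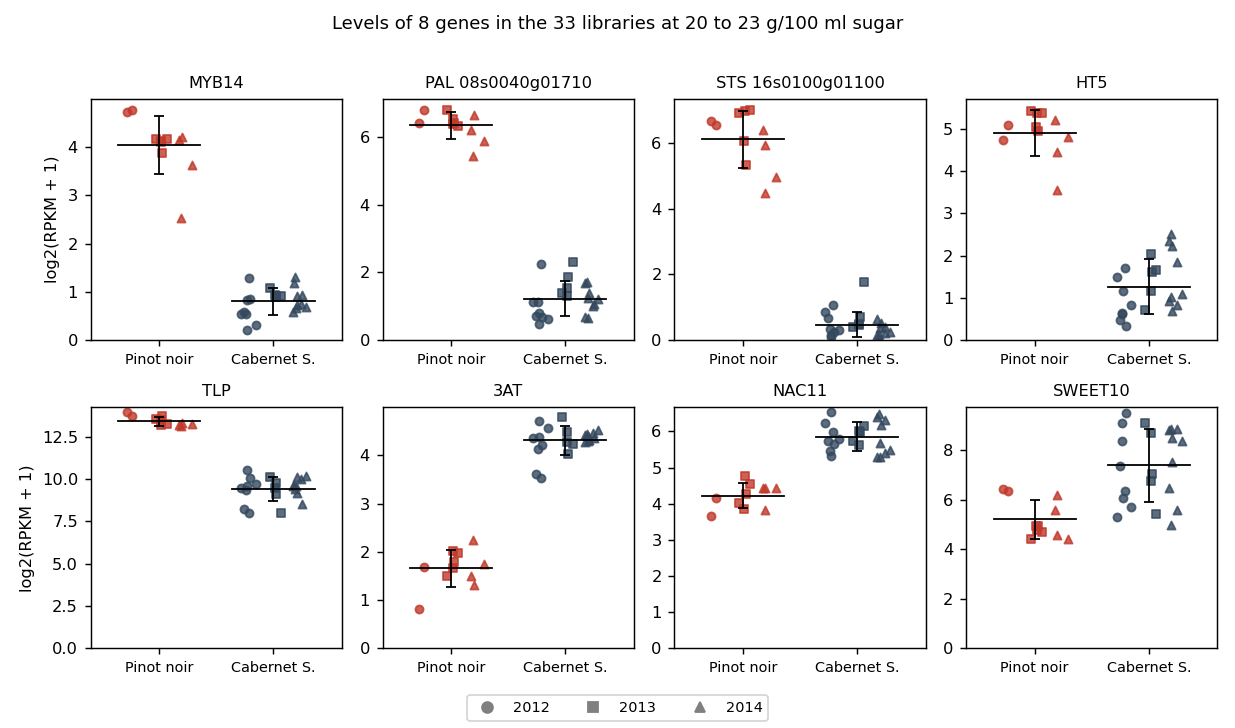
Levels, log2(RPKM + 1), of 8 genes in the 33 libraries, with Pinot noir left of Cabernet Sauvignon in each panel; symbols give the season, and bars the mean with its SD (n = 11 and 22). MYB14, the phenylalanine ammonia-lyase, the stilbene synthase, HT5 and TLP lie higher in Pinot noir with no overlap, 3AT and NAC11 lie lower with no overlap, and SWEET10 overlaps.

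The flavonoid core enzymes, which make the skeleton shared by anthocyanins, flavonols and tannins, were in part higher in Pinot noir. Of 8 genes tested, 3 were higher, against 6.16% of all genes tested, 0 were lower and 5 did not pass. CHS1 (VIT_14s0068g00930), a chalcone synthase, ran from 15.0 to 30.7 RPKM in Pinot noir (median 24.02), against 3.80 to 13.8 RPKM in Cabernet Sauvignon (median 8.32; difference 1.42, SE 0.13). CHI (VIT_13s0067g03820), the chalcone isomerase, ran from 130 to 238 RPKM in Pinot noir (median 193), against 47.9 to 120 RPKM in Cabernet Sauvignon (median 76.2; difference 1.29, SE 0.09). Neither pair of groups overlapped. The abundant chalcone synthase CHS3 (VIT_05s0136g00260) averaged 811 ± 210 RPKM in Pinot noir (SD, n = 11) and 354 ± 85.4 RPKM in Cabernet Sauvignon (SD, n = 22; difference 1.07, SE 0.12), and its groups overlapped. Its difference lies near the size threshold and missed it in 9 alternatives, with 0.92 in 2014 alone as the lowest. The later step DFR averaged 49.1 RPKM in both cultivars.

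The steps that finish anthocyanins did not move together. Of 7 genes, 1 was higher in Pinot noir, 1 lower and 5 did not pass. For all genes tested the shares were 6.16% higher and 4.71% lower. 3AT (VIT_03s0017g00870), the acyltransferase that adds acyl groups to anthocyanins, was lower in Pinot noir, at 0.772 to 3.72 RPKM (median 2.23), against 10.6 to 26.8 RPKM in Cabernet Sauvignon (median 19.5). Every Pinot noir library lay under every Cabernet Sauvignon library, and the difference was -2.70 (SE 0.12, limma adjusted p = 1.16e-19). UFGT (VIT_16s0039g02230), the glucosyltransferase that completes anthocyanins, ran from 37.3 to 84.2 RPKM in Pinot noir (median 71.8), against 21.8 to 45.5 RPKM in Cabernet Sauvignon (median 32.4). Its difference of 0.85 (SE 0.10) had an adjusted p of 1.51e-08 in limma and stayed under the size threshold. The gene that passed upward, AM2 (VIT_16s0050g00900), an anthocyanin MATE transporter, was low, at 1.58 ± 0.251 RPKM in Pinot noir (SD, n = 11) and 0.261 ± 0.125 RPKM in Cabernet Sauvignon (SD, n = 22). It passed the filter on low values through Pinot noir libraries alone, so it could only differ upward. Its difference of 1.02 (SE 0.06) missed the size threshold in 11 alternatives, with 0.32 for a pseudocount of 5 as the lowest, and was 0.99 without the Pinot noir library of 2012 at day 32, replicate 2, or that of 2014 at day 35, replicate 2.

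The vacuolar transport gene GST4 (VIT_04s0079g00690) averaged 771 ± 130 RPKM in Pinot noir (SD, n = 11) and 662 ± 146 RPKM in Cabernet Sauvignon (SD, n = 22), a difference of 0.16 (SE 0.10; limma adjusted p = 0.156; -0.00 with quantile normalization). AOMT (VIT_01s0010g03510), which methylates anthocyanins, averaged 31.2 ± 7.43 RPKM in Pinot noir and 31.4 ± 12.2 RPKM in Cabernet Sauvignon, and its difference of -0.02 (SE 0.14; limma adjusted p = 0.898) took either sign among the alternatives tried. Of 7 tested regulators of colour, none passed (0 higher and 0 lower). MYBA1 (VIT_02s0033g00410), an activator at the colour locus, averaged 13.3 ± 4.47 RPKM in Pinot noir and 21.0 ± 7.96 RPKM in Cabernet Sauvignon (difference -0.65, SE 0.16, limma adjusted p = 0.000868). For its neighbour MYBA2 (VIT_02s0033g00390) the means were 51.8 ± 16.8 RPKM in Pinot noir and 85.9 ± 21.8 RPKM in Cabernet Sauvignon (difference -0.81, SE 0.14, limma adjusted p = 6.55e-06). Both differences were under the size threshold.

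Among the hydroxylases that set the number of hydroxyl groups on the flavonoid B ring, the chromosome 6 cluster of flavonoid 3',5'-hydroxylases differed most. These enzymes direct synthesis to the blue-purple delphinidin type. Of 16 genes, 12 were tested, 4 were lower in Pinot noir, 1 was higher and 7 did not pass. Among all genes tested, 4.71% were lower and 6.16% higher. VIT_06s0009g02830 ran from 6.44 to 25.1 RPKM in Pinot noir (median 14.7), against 19.7 to 69.8 RPKM in Cabernet Sauvignon (median 29.8; difference -1.35, SE 0.17). VIT_06s0009g02810 had a difference of -1.51 (SE 0.23), VIT_06s0009g02840 of -1.32 (SE 0.16) and VIT_06s0009g02970 of -1.02 (SE 0.26). In the other direction, VIT_06s0009g02880 ran from 2.00 to 14.1 RPKM in Pinot noir (median 8.91), against 0 to 8.98 RPKM in Cabernet Sauvignon (median 1.45; difference 1.71, SE 0.26). All 5 had overlapping groups. The F3'H gene of the alternative 3'-hydroxylation did not pass, at 56.6 RPKM in Pinot noir and 45.1 RPKM in Cabernet Sauvignon on average.

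The summed levels of the B-ring hydroxylase list followed the division of libraries by the 13 genes. The list also holds F3'H and F3'H2 of chromosome 17, so its sums are not those of the chromosome 6 cluster alone. Where the 13 genes were present, the summed B-ring hydroxylases ran from 87.3 to 194 RPKM in 7 Pinot noir libraries and from 162 to 361 RPKM in 11 Cabernet Sauvignon libraries. Where they were absent, the sums were 49.8 to 84.3 RPKM in 4 Pinot noir and 77.9 to 112 RPKM in 11 Cabernet Sauvignon libraries. VIT_06s0009g02880 was listed at 0 in all 11 Cabernet Sauvignon libraries of the second kind and at 2.89 to 8.98 RPKM in those of the first. Within the 18 libraries with the 13 genes present, the differences were -2.30 for VIT_06s0009g02810, -1.78 for VIT_06s0009g02830, -1.68 for VIT_06s0009g02840, -1.80 for VIT_06s0009g02970 and 0.72, no longer passing, for VIT_06s0009g02880. Within the 15 libraries without them, these differences were -1.22, -1.17 and -1.35 for the first 3 genes, -0.95, no longer passing, for VIT_06s0009g02970 and 2.14 for VIT_06s0009g02880. VIT_06s0009g02810, VIT_06s0009g02830 and VIT_06s0009g02840 thus passed as lower in Pinot noir within both kinds. They did not when libraries were matched by labelled day 42 or 43 in place of sugar, where the differences were -0.51, -0.58 and -0.61, that of VIT_06s0009g02970 was 0.0088, and 0 genes of the list were lower. VIT_06s0009g02810 also missed in 2013 alone (-1.30, limma adjusted p = 0.0661), VIT_06s0009g02840 with a pseudocount of 5 (-0.90), and VIT_06s0009g02880 with a pseudocount of 5 (0.78) and in 2012 alone (0.38). VIT_06s0009g02970 lost its call in 17 alternatives, and also with single libraries left out. Leaving out the Pinot noir library of 2012 that lay apart gave -0.83, and leaving out the other library of that season, or 1 of 4 Cabernet Sauvignon libraries (2012 at day 80, replicate 2, and 2013 at day 29, replicates 1 and 2, and at day 36, replicate 3), gave -0.94 to -0.99.

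**Figure D3:**
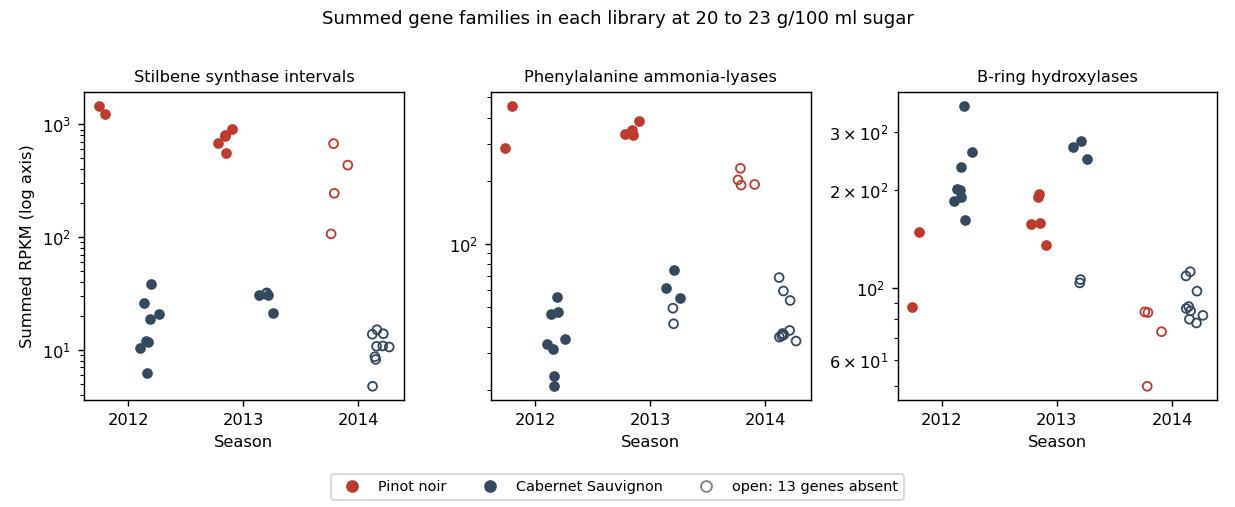
Summed RPKM of the stilbene synthase intervals, the phenylalanine ammonia-lyases and the B-ring hydroxylases in each library (log axis), by season, with Pinot noir (red) left of Cabernet Sauvignon (dark blue). Open points are the 15 libraries in which the 13 genes were absent; the stilbene synthase sums do not overlap between cultivars, and the B-ring sums are lower in open points of either cultivar.

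The flavonol and tannin branches held single changes. FLS5 (VIT_18s0001g03430), a flavonol synthase, ran from 83.2 to 136 RPKM in Pinot noir (median 99.0), against 26.2 to 71.7 RPKM in Cabernet Sauvignon (median 43.6; difference 1.20, SE 0.14). FLS4 (VIT_18s0001g03470), of the same family, averaged 1.42 ± 0.968 RPKM in Pinot noir (SD, n = 11) and 5.01 ± 4.22 RPKM in Cabernet Sauvignon (SD, n = 22; difference -1.19, SE 0.28). FLS5 did not overlap between cultivars and FLS4 did. FLS4 missed the thresholds in 7 alternatives. Its difference was -0.44 at labelled day 42 or 43 (limma adjusted p = 0.168), -0.50 in 2012 alone, -0.96 in 2013 alone, -0.78 without 2014, -0.82 in the 18 libraries with the 13 genes and -0.59 with a pseudocount of 5, and limma's treat test against 0.5 gave an adjusted p of 0.0555. FLS5 was 0.94 in 2012 alone. Of 5 tannin genes tested, 2 were higher in Pinot noir, against 6.16% of all genes tested, 0 were lower and 3 did not pass. ANR (VIT_00s0361g00040), the anthocyanidin reductase of tannin synthesis, ran from 2.45 to 3.67 RPKM in Pinot noir (median 2.94), against 0.187 to 1.39 RPKM in Cabernet Sauvignon (median 0.673; difference 1.24, SE 0.07). With a pseudocount of 5 it was 0.49, under the size threshold. MYBPA1 (VIT_15s0046g00170), an activator of tannin genes, ran from 6.09 to 30.2 RPKM in Pinot noir (median 15.9), against 1.24 to 14.4 RPKM in Cabernet Sauvignon (median 3.65; difference 1.74, SE 0.26). The leucoanthocyanidin reductase LAR2 averaged 2.09 RPKM in Pinot noir and 2.47 RPKM in Cabernet Sauvignon and did not pass, and LAR1 was below the filter. ANR is also a marker of tannin-making tissue such as seed, and the part of such tissue in its difference was not tested.

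Of 5 NAC factors named in ripening work, 1 was lower in Pinot noir, 0 higher and 4 did not pass. The share of all genes tested that were lower was 4.71%. In 3 of 31 alternatives 2 NAC factors passed as lower, and at labelled day 42 or 43 in place of sugar 1 passed as higher. NAC11 (VIT_14s0108g01070) ran from 11.8 to 26.1 RPKM in Pinot noir (median 18.2), against 37.9 to 91.1 RPKM in Cabernet Sauvignon (median 53.7). The groups did not overlap, and the difference was -1.66 (SE 0.14, limma adjusted p = 8.2e-12). NAC13 (VIT_02s0012g01040), named after its value was seen, also had no overlap, at 37.4 to 54.3 RPKM in Pinot noir against 62.1 to 107 RPKM in Cabernet Sauvignon, and its difference of -0.93 (SE 0.07) stayed under the size threshold. In Cabernet Sauvignon, NAC11 had a median of 43.8 RPKM at labelled days 29 to 42 and of 71.2 RPKM at days 43 to 80 (11 libraries each). With libraries of labelled days 28 to 49 alone, the difference of NAC11 was -1.51, and at labelled day 42 or 43 in place of sugar it was -1.10. The 2 genes of abscisic acid synthesis (NCED) did not pass, though 1 passed as lower at labelled day 42 or 43 in place of sugar.

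Of 9 genes of sugar transport and cleavage, 3 were higher in Pinot noir, against 6.16% of all genes tested. Another 1 was lower, against 4.71% of all, and 5 did not pass. All 3 higher genes code for hexose transporters. HT5 (VIT_05s0020g03140) ran from 10.6 to 41.8 RPKM in Pinot noir (median 31.8), against 0.270 to 4.67 RPKM in Cabernet Sauvignon (median 1.19; difference 3.52, SE 0.22, limma adjusted p = 1.59e-15). HT2 (VIT_18s0001g05570) ran from 20.9 to 39.4 RPKM in Pinot noir (median 26.0), against 1.05 to 10.4 RPKM in Cabernet Sauvignon (median 5.02; difference 2.42, SE 0.22). Neither pair of groups overlapped. HT1 (VIT_00s0181g00010) averaged 8.74 ± 3.21 RPKM in Pinot noir (SD, n = 11) and 2.17 ± 1.19 RPKM in Cabernet Sauvignon (SD, n = 22; difference 1.62, SE 0.17). The difference of HT1 was 0.92 with a pseudocount of 5, short of the size threshold, and did not pass in 2012 alone (1.15, limma adjusted p = 0.0543). The abundant HT6 did not pass, at 141 RPKM in Pinot noir and 110 RPKM in Cabernet Sauvignon on average.

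SWEET10 (VIT_17s0000g00830), a sugar exporter, was lower in Pinot noir, at 20.5 to 84.6 RPKM (median 29.4), against 30.5 to 713 RPKM in Cabernet Sauvignon (median 173; difference -2.10, SE 0.48, limma adjusted p = 0.000331). The groups overlapped because Cabernet Sauvignon was spread widely. Its libraries of labelled days 29 to 42 had a median of 446 RPKM and those of days 43 to 80 a median of 66.0 RPKM (11 libraries each), at sugar contents within the same window. With libraries of days 28 to 49 alone the difference was -2.78, and at labelled day 42 or 43 in place of sugar -3.32, while within 2012, where the Cabernet Sauvignon libraries reach day 80, it was -0.84 and did not pass. The exporter SWEET15 was more abundant and did not pass, at 1069 RPKM in Pinot noir and 1438 RPKM in Cabernet Sauvignon on average.

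Both genes of the abundant ripe-berry proteins were higher in Pinot noir. TLP (VIT_02s0025g04330), a thaumatin-like protein of the kind that accumulates in ripe berries, ran from 8911 to 15744 RPKM in Pinot noir (median 10041), against 251 to 1475 RPKM in Cabernet Sauvignon (median 768). The difference was 4.01 (SE 0.23, limma adjusted p = 1.61e-16). CHIT4 (VIT_05s0094g00340), a chitinase, ran from 13010 to 19095 RPKM in Pinot noir (median 14527), against 2005 to 6226 RPKM in Cabernet Sauvignon (median 4172; difference 1.99, SE 0.15). Neither pair overlapped. Of 4 softening genes none passed (0 higher and 0 lower), and the polygalacturonase PG1 (VIT_08s0007g08330), named after its value was seen, was just under the size threshold with 244 RPKM in Pinot noir and 123 RPKM in Cabernet Sauvignon (difference 0.97, SE 0.10). In 8 of 31 alternatives, and in 3 fits with a single library left out, 1 softening gene passed as higher. The methoxypyrazine gene OMT3 reached at most 0.0996 RPKM in Pinot noir and 0.137 RPKM in Cabernet Sauvignon and was not tested.

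Among genes known by ID alone, VIT_06s0004g02010 had 72.1 to 574 RPKM in Pinot noir (median 299), against 0 to 2.66 RPKM in Cabernet Sauvignon (median 0; difference 7.60, SE 0.25). VIT_18s0166g00060 had 17.0 to 403 RPKM in Pinot noir (median 260), against 0 to 20.5 RPKM in Cabernet Sauvignon (median 0; difference 7.33, SE 0.41). Its groups overlapped through the highest Cabernet Sauvignon library, and the mean of that cultivar was 0.932 RPKM. In the other direction, VIT_12s0035g00730 had 0 to 1.16 RPKM in Pinot noir (median 0.920), against 44.8 to 88.7 RPKM in Cabernet Sauvignon (median 65.1; difference -5.24, SE 0.11). For VIT_19s0085g00920 the values were 1.02 to 2.43 RPKM in Pinot noir (median 1.75), against 52.6 to 163 RPKM in Cabernet Sauvignon (median 86.0; difference -4.97, SE 0.11). A further 16 genes had 1 RPKM or more in every Pinot noir library and were listed at 0 in every Cabernet Sauvignon library, and 11 genes showed the reverse.

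A second question was whether the cultivar difference was alike in the 3 seasons. In 2012, 2013 and 2014, 42, 37 and 37 of the 42 stilbene synthase genes were higher in Pinot noir, and 12, 12 and 11 of the 13 phenylalanine ammonia-lyases. Over all 18141 genes tested, 1417, 1157 and 1024 were higher in these seasons. Since 31 of the stilbene synthase genes and 9 of the phenylalanine ammonia-lyases passed the filter through Pinot noir alone, their direction was fixed in advance. In 2014 all the compared libraries lacked the 13 genes, so for Pinot noir season and kind of library cannot be told apart. The interaction of cultivar and season passed in 251 genes (1.38%; limma F test, adjusted p under 0.05), 180 of them with a smaller difference in 2014 than the mean of the other seasons. The share with a smaller difference in 2014 was not computed over all genes tested. Of these, 2529, 2052 and 1889 changed in 2012, 2013 and 2014. Among the listed genes, 25 of 42 stilbene synthase genes and 8 of 13 phenylalanine ammonia-lyases passed, and no gene of another list. The median difference of the stilbene synthase list was 4.25 in 2012, 2.99 in 2013 and 1.98 in 2014, and that of the phenylalanine ammonia-lyase list 3.61, 3.21 and 1.55. Summed stilbene synthase levels in Pinot noir were 1226 and 1446 RPKM in 2012, 560 to 906 RPKM in 2013 and 107 to 675 RPKM in 2014, against 6.21 to 38.5, 21.2 to 32.1 and 4.76 to 15.1 RPKM in Cabernet Sauvignon of those seasons.

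Single members show the pattern. VIT_16s0039g01300, a phenylalanine ammonia-lyase, had differences of 4.30, 3.77 and 1.39 in 2012, 2013 and 2014 (adjusted p of the interaction 1.53e-07, limma), and VIT_16s0039g01280 had 3.61, 3.28 and 1.49. Among the stilbene synthases, the differences were 4.39, 3.92 and 1.14 for VIT_16s0100g01190, 4.25, 3.72 and 1.58 for VIT_16s0100g01130, and 4.53, 3.83 and 1.92 for VIT_16s0100g01160. VIT_10s0042g00880 was at 12.1 to 51.1 RPKM in the 7 Pinot noir libraries with the 13 genes and listed at 0 in the other 4, and in Cabernet Sauvignon it was at 0 to 3.69 RPKM in the 11 libraries with them and listed at 0 in the 11 without. This gene is part of the summed stilbene synthase levels. VIT_16s0100g01200, which also passed the interaction, had differences of 6.46, 5.48 and 4.00. The phenylalanine ammonia-lyases VIT_08s0040g01710 (5.62, 4.80 and 4.86) and VIT_13s0019g04460 (1.54, 1.47 and 1.50), on other chromosomes, did not pass the interaction.

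The count of 251 rests on the 2 Pinot noir libraries of 2012. Without replicate 1 of day 32, the library that lay apart, 90 genes passed, 11 of them stilbene synthases and 9 phenylalanine ammonia-lyases, and without replicate 2, 4576 genes passed. Without the other single libraries the count was 171 to 348, and 8 phenylalanine ammonia-lyases passed each time. When 2012 was compared with 2013 alone, over the 18 libraries with the 13 genes present, 48 genes passed, with 17 of the stilbene synthase genes and 0 of the phenylalanine ammonia-lyases.

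The last question was where the late difference departs from the cultivar difference earlier in ripening, at 10 to 13 g/100 ml (6 Pinot noir and 6 Cabernet Sauvignon libraries, with no Pinot noir library of 2012). The largest group of listed genes that moved was already higher in Pinot noir early and stood further apart late. Of 18739 genes tested, the difference moved upward in 444 (2.37%) and downward in 255 (1.36%), with the same thresholds. Among listed genes, 57 moved upward and 1 downward. Of the 57, 41 were phenylalanine ammonia-lyases or stilbene synthases, 39 of them with an early difference above 0. Over all 57, 11 had an early difference of 0 or below, and 4 of those 11 (CHS3, CHI, MYBPA1 and the phenylalanine ammonia-lyase VIT_13s0019g04460) passed as higher at 20 to 23 g/100 ml. The 57 included 13 of 13 phenylalanine ammonia-lyases, 28 of 42 stilbene synthase genes tested and 5 of 8 flavonoid core genes. With a pseudocount of 0.1, 11 of these phenylalanine ammonia-lyase, 15 of the stilbene synthase and 5 of the core shifts still passed, and with a pseudocount of 5, 6, 20 and 4. At 20 to 23 g/100 ml, 9 of the phenylalanine ammonia-lyases and 31 of the stilbene synthase genes passed the filter on low values through Pinot noir alone. Those also near 0 in the early window could hardly shift downward, so the direction of these counts is in part set by the filter.

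CHI (VIT_13s0067g03820) had 58.3 to 75.9 RPKM in Pinot noir, against 67.0 to 147 RPKM in Cabernet Sauvignon, in the early window, where the difference was -0.62, and the shift to the late window was 1.91 (SE 0.16, limma adjusted p = 3.45e-12). CHS3 (VIT_05s0136g00260) had 215 to 485 RPKM in Pinot noir and 269 to 732 RPKM in Cabernet Sauvignon early, and shifted by 1.73 (SE 0.22). MYBPA1 (VIT_15s0046g00170) had 2.38 to 7.18 RPKM in Pinot noir and 7.45 to 16.1 RPKM in Cabernet Sauvignon early, without overlap, and shifted by 3.03 (SE 0.45), so that its cultivar order was opposite in the 2 windows. UFGT (VIT_16s0039g02230) shifted by 1.16 (SE 0.20) and GST4 (VIT_04s0079g00690) by 1.07 (SE 0.20), the second of which was 0.94, under the size threshold, with quantile normalization.

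Some genes already higher in Pinot noir at 10 to 13 g/100 ml moved further apart, and others did not. Of the 2 stilbene regulators tested, MYB14 passed and MYB15 did not. VIT_18s0166g00060, with an early difference of 6.19, shifted by 1.15 and did not pass (limma adjusted p = 0.25). MYB14 (VIT_07s0005g03340) had 2.77 to 5.71 RPKM in Pinot noir and 0.692 to 1.91 RPKM in Cabernet Sauvignon early, and its early difference of 1.3 shifted by 1.93 (SE 0.26). VIT_16s0100g01100, the stilbene synthase with the largest late difference, had 1.26 to 14.0 RPKM in Pinot noir and 0 to 0.260 RPKM in Cabernet Sauvignon early, and shifted by 2.98 (SE 0.38). The phenylalanine ammonia-lyase VIT_08s0040g01710 shifted by 1.80 (SE 0.33), HT5 (VIT_05s0020g03140) by 1.63 (SE 0.49), CHIT4 (VIT_05s0094g00340) by 1.63 (SE 0.26) and TLP (VIT_02s0025g04330) by 1.36 (SE 0.39). The shift of TLP was 0.76 and did not pass with quantile normalization, and that of HT5 was 1.14 and did not pass with a pseudocount of 0.1. In the early window the difference was -3.21 for 3AT, -1.58 for NAC11 and -2.00 for SWEET10, and none of these 3 genes passed the test of a shift. The 1 listed gene that moved downward, SWEET15 (VIT_01s0146g00260), named after its value was seen, had 629 to 1102 RPKM in Pinot noir and 293 to 757 RPKM in Cabernet Sauvignon early, and shifted by -1.13 (SE 0.24).

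**Figure D4:**
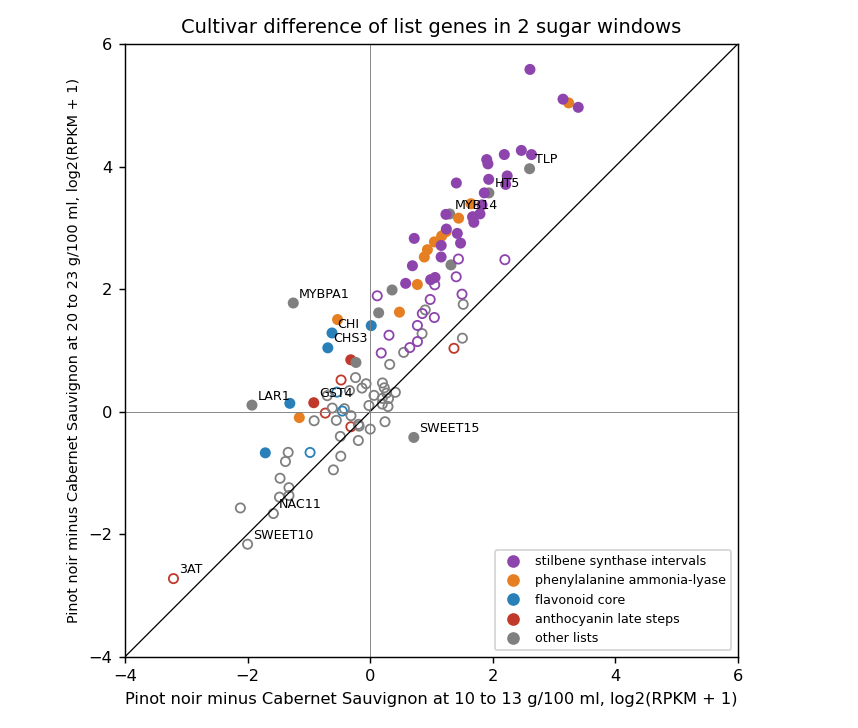
Cultivar difference (Pinot noir minus Cabernet Sauvignon, log2(RPKM + 1)) of each listed gene at 20 to 23 g/100 ml (vertical) against that at 10 to 13 g/100 ml (horizontal), with the line of equality; filled points moved past the thresholds. Most stilbene synthase and phenylalanine ammonia-lyase points and 5 flavonoid core points lie filled above the line, 3AT, NAC11 and SWEET10 lie near it, and SWEET15 lies below it.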

How the data were processed

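The authors deposited RPKM values per gene, already normalised for gene length and library size, for the non-directional libraries of the series. The submitters' processing notes name TopHat2 2.0.6 and Cufflinks 2.0.2, and the genome build was not given in the sources used here. Read depth is unknown and was not derived from the low values. For genes under 0.4 RPKM, ratios of a library to each other library were put in bins of 0.02 log2. The fullest bin held a median of 3.26% and at most 5.86% of the ratios. No reference spread was computed, so steps of whole reads were not tested. Groups, sugar contents and days came from the labels, and 0 columns belonged to other series.

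Genes at 1 RPKM or more in at least 3 of the 33 libraries were tested on log2(RPKM + 1) with limma 3.58.1 (R 4.3.3; trended, robust empirical Bayes), with cultivar and season as terms and 29 residual degrees of freedom. Fold changes on this scale understate the change of low genes. The interaction was an F test over 2 cultivar-by-season terms. The contrast of sugar windows had season as an additive term. The scripts were tested on simulated data. TMM factors, a trimmed mean of log ratios, were computed on the RPKM values.

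The members and gene lists were chosen with earlier results of these data known. Symbols come from published use of the gene IDs, not from the files; of 137 list genes, 30 were found by symbol in the RefSeq table, 29 of them on the same chromosome. Named genes were 7 colour and tannin genes whatever their result, up to 6 changed genes a list (3 for stilbene synthase and phenylalanine ammonia-lyase) by size of difference, 2 higher and 2 lower genes known by ID alone (mean of at least 5 RPKM, same sign in 3 seasons), and up to 6 listed genes that passed the interaction or the contrast of windows. Alternatives covered pseudocount, filter, scaling, covariates, sugar window, seasons, kinds of library and libraries left out. No sequences are given, and strand was not used, so overlapping genes cannot be told apart.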

Additional observations from a re-analysis of the deposited data

Results flagged for a closer look

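The cultivar difference differed between seasons in 251 genes by the interaction test. One of them was the stilbene synthase VIT_16s0100g01200, whose difference in 2014 was 4.00, smaller than in the other seasons.

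The cultivar difference at 20 to 23 g/100 ml differed from that at 10 to 13 g/100 ml in 699 genes by a test of the contrast itself. All the shifts of named listed genes that passed were upward in Pinot noir relative to Cabernet Sauvignon, apart from that of SWEET15 given above. Among the genes known by ID alone, VIT_06s0004g02010 shifted by 3.25 (limma adjusted p = 9.07e-07) and VIT_19s0085g00920 by -1.10 (limma adjusted p = 0.00052). VIT_18s0166g00060 and VIT_12s0035g00730 did not pass. Among pigment and tannin genes the shift was 1.39 for CHS1, 1.73 for CHS3, 1.91 for CHI, 1.16 for UFGT, 1.07 for GST4 and 3.03 for MYBPA1. For the stilbene regulator MYB14 it was 1.93. Of the phenylalanine ammonia-lyases it was 1.80 for VIT_08s0040g01710, 1.50 for VIT_16s0039g01100 and 1.75 for VIT_16s0039g01320, and VIT_16s0039g01100 and VIT_16s0039g01320 did not pass with a pseudocount of 0.1 (limma adjusted p = 0.0552 and 0.11). Of the stilbene synthases it was 1.57 for VIT_16s0100g00750, 2.98 for VIT_16s0100g01100 and 1.95 for VIT_16s0100g01200, and that of VIT_16s0100g00750 did not pass with a pseudocount of 0.1 (limma adjusted p = 0.0922). Hexose transporters shifted by 1.47 (HT1), 1.08 (HT2) and 1.63 (HT5), and the abundant proteins by 1.63 (CHIT4) and 1.36 (TLP). With a pseudocount of 5, HT1 (0.86) and HT2 (0.60) fell short of the size threshold, and HT2 did not pass with a season term of its own for each window (limma adjusted p = 0.053).

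In Cabernet Sauvignon of 2013, the lowest of 5 summed stilbene synthase levels, 21.22 RPKM, stood far from the other 4 by Dixon's test. Chance flags about 1 in 20 such groups.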

How the results depend on the processing

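The counts of changed genes moved by over 1.5 times with the pseudocount and a stricter filter. With a pseudocount of 0.1, 3172 genes changed (1686 higher in Pinot noir and 1486 lower), with a pseudocount of 5, 857 (525 higher and 332 lower), and with a mean of at least 5 RPKM, 1102 (570 higher and 532 lower), where fewer genes were tested. The interaction count moved further with libraries left out than with the pseudocount: it was 85 and 415 with pseudocounts of 0.1 and 5, 48 for 2012 against 2013, 49 to 4072 without a replicate number and 90 to 4576 without a single library. The contrast of windows gave 1107 and 315 genes with pseudocounts of 0.1 and 5. The sign of AOMT turned to 0.084 with quantile normalization, 0.096 with TMM, 0.039 with day as covariate, 0.27 at day 42 or 43, 0.018 without 2012, 0.051 in 2014 alone and in the 15 libraries without the 13 genes, 0.049 at days 28 to 49, and 0.068 in the fit of the whole series, and ran from -0.114 to 0.042 with libraries left out. GST4 was -0.00 (-0.00299) with quantile normalization, and F3'5'H (g02970) 0.0088 at day 42 or 43. The cause of these moves was not tested. Replicate numbers did not pair the samples (mean correlation of deviations -0.110 for same-numbered pairs of the 2 cultivars and -0.083 for others), and a fit with the replicate block gave 1974 changed genes, 1946 of them shared. Leaving out any single library gave 1949 to 2012 changed genes. In 2012 alone, with 2 Pinot noir libraries, the filter on 3 libraries removed genes near 0 in Cabernet Sauvignon, and 17 stilbene synthases and 4 phenylalanine ammonia-lyases passed.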

Other observations

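In Cabernet Sauvignon, MYBPA1 had a median of 2.10 RPKM at days 29 to 42 (1.45 to 5.17 RPKM) and of 5.23 RPKM at days 43 to 80 (1.24 to 14.4 RPKM), 11 libraries each. The ranges overlapped, and a difference between days was not tested. LAR1 (VIT_01s0011g02960), a leucoanthocyanidin reductase named after its value was seen, had 0 to 0.197 RPKM in Pinot noir and 2.04 to 5.42 RPKM in Cabernet Sauvignon at 10 to 13 g/100 ml, and at most 0.498 RPKM in Pinot noir and 0.276 RPKM in Cabernet Sauvignon at 20 to 23 g/100 ml. Its cultivar difference shifted by 2.03 (SE 0.13, limma adjusted p = 1.25e-15), the low late levels of both cultivars being near the lower end of the scale.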
